A study of Mus musculus with 2 samples.

Results

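The genes described here carry the insulin, glucagon, AMPK and mTOR signals inside the liver cell. They were chosen by name, as a list of 40 genes, and 29 of the 40 had a row among the 8551 genes of the table of normal and diabetic mouse liver. The other 11, Irs2, Shc1, Sos1, Akt1, Akt2, Foxo3, Creb1, Prkaa2, Rptor, Tsc2 and Rheb, had no row under their symbol and were not analysed here. The normal liver came from wild type male mice and the diabetic liver from db/db male mice. The labels give C57BL/6 as the strain background of both groups, and all mice were 9 weeks old, were fed chow without restriction and were killed about 3 h into the light phase. The db/db mouse carries a mutated leptin receptor in every cell, so it is a model of obesity with diabetes and not of a lesion in the liver alone. The gene for that receptor, Lepr, had no row, so the labels could not be checked with it. The mice came from 2 suppliers, and the study does not say which supplier gave which group, so supplier and genotype cannot be told apart here.

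Insulin binds its receptor, a tyrosine kinase that phosphorylates docking proteins, and these recruit PI3K, which makes the lipid PIP3 and so brings the kinase Akt to the membrane. Akt holds down GSK3 and the FoxO factors, and it relieves the TSC brake on mTOR complex 1, the kinase complex that drives protein and lipid synthesis. Glucagon acts the other way through its receptor, cAMP and protein kinase A (PKA), which turn on glucose production in the fasted liver, while AMPK, the sensor of low cellular energy, restrains synthesis.

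Each group was 1 library of digital gene expression tags, that is, short reads taken next to the DpnII sites of polyadenylated transcripts. The unit is tags of a gene per 1000000 clean tags of the library, called TPM by the authors and not scaled to gene length, so levels are compared between libraries and not between genes. A single read was worth 0.0973 TPM in the normal and 0.0740 TPM in the diabetic library, which gives 10278531 and 13508232 clean tags. A count of 3 reads, the limit that a count of 0 allows, equalled 0.292 TPM in the normal and 0.222 TPM in the diabetic library. With no second library in either group, no difference has a replicate check. The 95% intervals given are exact and cover counting error only. The reads carry no molecular identifiers, so copies made by PCR count separately, which the intervals do not allow for. Called means at least 1.5-fold and an FDR under 0.001 in the exact binomial test on reads, adjusted over all 8551 genes. That test compares these 2 libraries and not the conditions. If the reads of a gene varied by 20% between libraries of the same group beyond counting, 0 of the 29 genes and 318 of all genes would be called.

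Each gene enters the assay through the tag beside a DpnII site of its transcript. The sequences below are the DpnII sites nearest the 3′ end with the 16 bases that follow, as predicted from GENCODE transcripts of the build GRCm38, and they are shown for the 11 genes that were called under the deposited or the TMM scaling described further on. Capitals mark the DpnII site.
Ddit4: GATCttcgacacttgaaaca (chr10:59949916-59949935, minus strand, 3′ untranslated region)
Prkacb: GATCatgcggatacagtttt (chr3:146731391-146731410, minus strand, 3′ untranslated region)
Gsk3a: GATCaaagctcacccttgga (chr7:25230610-25230629, minus strand, coding exon)
Prkaca: GATCgaacagccagagggcc (chr8:83995499-83995518, plus strand, 3′ untranslated region)
Prkar1a: GATCtgccctcagttacaga (chr11:109668415-109668434, plus strand, 3′ untranslated region)
Tsc1: GATCttaaaagcatgtcaaa (chr2:28690995-28691014, plus strand, 3′ untranslated region)
Pik3r1: GATCcctgttctcagtgttg (chr13:101681509-101681528, minus strand, 3′ untranslated region)
Gsk3b: GATCacttcggcctgtacac (chr16:38245091-38245110, plus strand, 3′ untranslated region)
Inppl1: GATCggtggttacgctggtg (chr7:101823055-101823074, minus strand, 3′ untranslated region)
Stk11: GATCtctgggcaggtgtccc (chr10:80130267-80130286, plus strand, 3′ untranslated region)
Rictor: GATCtcagatttaatgctct (chr15:6800026-6800045, plus strand, 3′ untranslated region)
The table gives no tags, so these are the tags that the digest should yield and not reads of the libraries, and a tag length of 20 bases was assumed. Each of the 29 predicted tags was found at no DpnII site of another gene, and the same held for the 11 genes without a row. The predicted tag lay in the 3′ untranslated region for 27 of the 29 genes. For Gsk3a and Gcgr it lay in a coding exon.

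Among the 29 genes, the diabetic library was higher for the PKA subunits Prkacb, Prkaca and Prkar1a, for the kinase Gsk3a and for Ddit4, an inhibitor of mTOR complex 1. It was lower for Pik3r1, the regulatory subunit of PI3K, and for Tsc1, part of the brake on mTOR. These 7 genes were called, 5 higher and 2 lower. By fold alone, 7 genes were at least 1.5-fold higher, 7 at least 1.5-fold lower and 15 within 1.5-fold. Of all 8551 genes, 34.4% were at least 1.5-fold higher and 15.3% at least 1.5-fold lower, while 22.9% were called higher and 8.19% called lower. The median log2 ratio of diabetic over normal was 0.006 over the 29 genes and 0.25 over all genes, and 11 of the 29 lay above the median gene. Genes with a mean under 1 TPM are not in the table, so Ddit4 and Prkaa1, each under 1 TPM in 1 library, had a row through the other library.

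The table as a whole was shifted upward in the diabetic library, and 4 other ways of scaling the libraries to each other lowered every log2 ratio by 0.25 to 0.31. Under TMM, which sets the middle of the genes level, 3 of the 29 genes were at least 1.5-fold higher and 11 at least 1.5-fold lower, beside 24.0% and 23.6% of all genes. Called under TMM were 3 genes higher, Gsk3a, Prkacb and Ddit4, and 6 lower, Pik3r1, Gsk3b, Inppl1, Stk11, Rictor and Tsc1, beside 14.9% and 13.4% of all genes. The median log2 ratio of the 29 genes was then -0.25. Gsk3a, Prkacb, Ddit4, Pik3r1 and Tsc1 were called under both scalings, and the share of all genes called under both was not counted. The direction turned from higher to lower under each of the 4 scalings for Insr, Foxo1, Trib1 and Mtor, and for none of the other 25 genes. Set against the median gene in place of a ratio of 1, the interval lay above it for 6 genes, below it for 12 and across it for 11. The same counts were not made over all genes, so these have no share to be set beside.

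**Figure D1:**
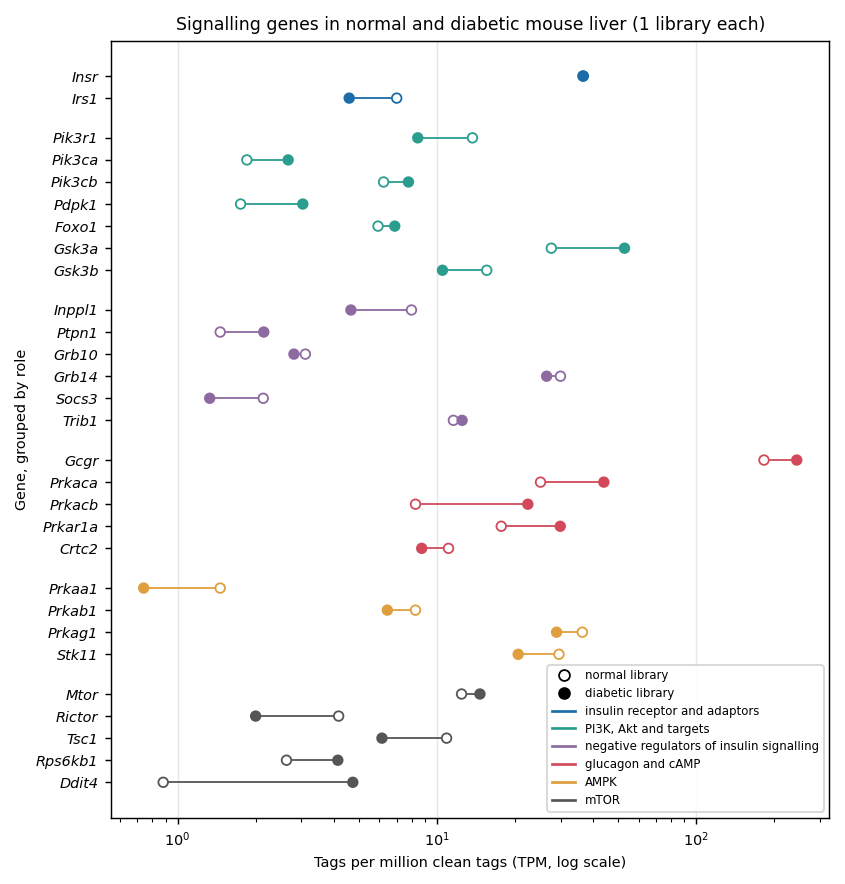
Level of each of the 29 signalling genes in the normal (open circle) and the diabetic (filled circle) library, in TPM on a log axis, with colours for the role of the gene and 1 library per group. Prkaca, Prkacb and Prkar1a have the filled circle to the right, the 4 AMPK genes have it to the left, and the circles of Insr coincide at 36.6 and 36.7 TPM.

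**Figure D2:**
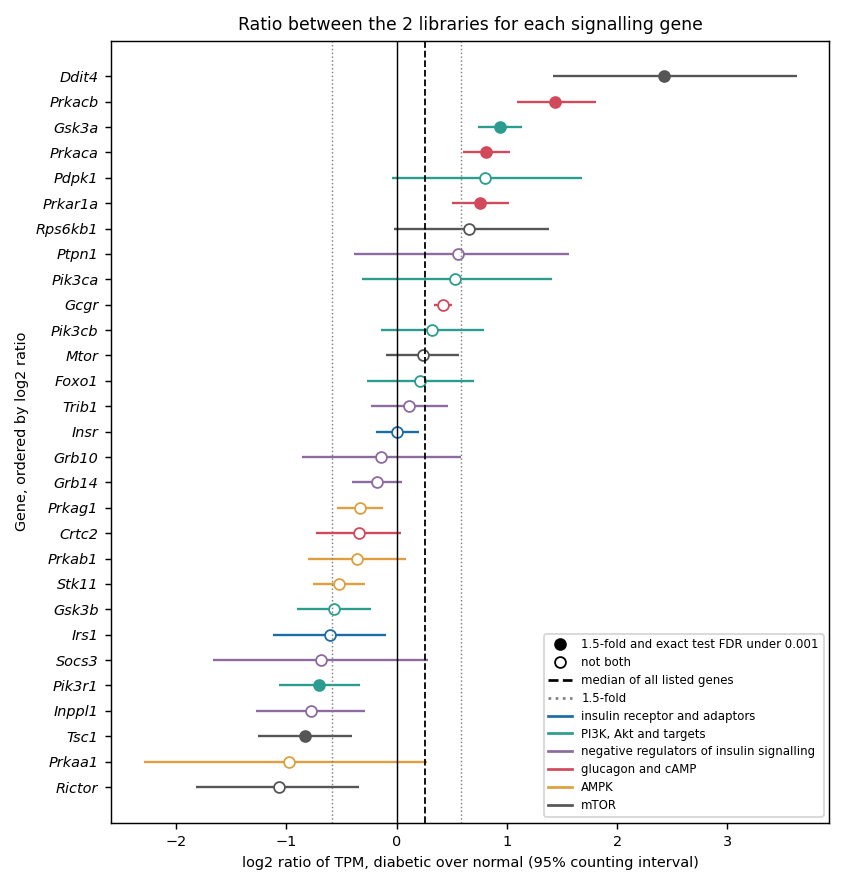
Log2 ratio of diabetic over normal for the same 29 genes with 95% counting intervals, ordered by size, with filled points for the 7 called genes. The dashed line is the median of all listed genes at 0.25 and the dotted lines mark 1.5-fold. The intervals run wide at low reads, from 1.42 to 3.63 for Ddit4 and from -2.30 to 0.27 for Prkaa1.

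At the top of the insulin branch, the receptor was level between the libraries on the deposited scale. Insr, the insulin receptor, was at 36.6 TPM in normal and 36.7 TPM in diabetic liver, from 376 and 496 reads, a log2 ratio of 0.01 (95% interval -0.19 to 0.20). Under TMM its log2 ratio was -0.25, with an FDR of 0.0273 in the exact test. Irs1, a docking protein that the receptor phosphorylates, was at 7.0 TPM in normal and 4.59 TPM in diabetic liver. Its log2 ratio of -0.61 had an interval from -1.12 to -0.10, and its FDR of 0.0282 in the exact test missed the threshold.

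The subunits of PI3K did not share a direction. Pik3r1, whose products hold and stabilize the catalytic subunits, was at 13.7 TPM in normal and 8.44 TPM in diabetic liver, from 141 and 114 reads. It was 1.63-fold lower in the diabetic library, with a log2 ratio of -0.70 (-1.07 to -0.33) and an exact test FDR of 0.000317. The catalytic subunit gene Pik3ca was at 1.85 and 2.67 TPM, a log2 ratio of 0.53 (-0.31 to 1.41) from only 19 and 36 reads. Pik3cb, the other catalytic subunit of the list, was at 6.23 and 7.77 TPM, a log2 ratio of 0.32 (-0.14 to 0.79). Both intervals held a ratio of 1. Pdpk1 encodes the kinase that phosphorylates Akt in its activation loop. It was at 1.75 TPM in normal and 3.04 TPM in diabetic liver, a log2 ratio of 0.80 (-0.04 to 1.68), which was 1.74-fold but had an exact test FDR of 0.0832.

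Of the genes below Akt, the GSK3 paralogs moved apart. Gsk3a stood at 27.6 TPM (284 reads) in normal liver and at 52.9 TPM (715 reads) in diabetic liver. It was upregulated to 1.92-fold, a log2 ratio of 0.94 (0.74 to 1.14), with an exact test FDR of 5.9e-21. Gsk3b was at 15.6 TPM in normal and 10.5 TPM in diabetic liver, from 160 and 142 reads, a log2 ratio of -0.57 (-0.90 to -0.23). Gsk3b was 1.48-fold lower and so just short of the fold threshold, and its exact test FDR of 0.00184 missed the FDR threshold too. Under TMM, at -0.82, it was called. Both genes encode kinases that phosphorylate glycogen synthase and hold glycogen synthesis down. Foxo1, the forkhead factor that Akt keeps out of the nucleus, was at 5.93 TPM in normal and 6.88 TPM in diabetic liver. Its log2 ratio was 0.21 (-0.27 to 0.70) on the deposited scale and -0.04 under TMM.

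Among the genes that restrain insulin signalling, 0 of 6 were called on the deposited scale, beside 22.9% of all genes called higher and 8.19% called lower. Inppl1, which encodes SHIP2, a phosphatase that removes a phosphate from PIP3, was at 7.98 TPM in normal and 4.66 TPM in diabetic liver. Its log2 ratio was -0.78 (-1.27 to -0.28), with an exact test FDR of 0.00332, and under TMM, at -1.03, it was called lower. Ptpn1, the tyrosine phosphatase PTP1B that dephosphorylates the insulin receptor, was at 1.46 and 2.15 TPM. Its 15 and 29 reads gave a log2 ratio of 0.56 with an interval from -0.39 to 1.56, so no difference was detectable at this depth. The adaptors Grb10 and Grb14 bind the active receptor and inhibit it. Grb10 was at 3.11 TPM in normal and 2.81 TPM in diabetic liver, and its log2 ratio was -0.15 (-0.86 to 0.58). Grb14 was at 29.97 and 26.5 TPM, with a log2 ratio of -0.18 (-0.40 to 0.05). Their intervals both held a ratio of 1, and that of Grb14 was the narrower by far, with 308 and 358 reads. Socs3, a feedback inhibitor of cytokine and insulin receptors, was at 2.14 TPM in normal and 1.33 TPM in diabetic liver, from 22 and 18 reads, a log2 ratio of -0.69 (-1.67 to 0.28). Trib1 encodes a pseudokinase and was at 11.6 and 12.5 TPM, with a log2 ratio of 0.11 (-0.24 to 0.46) that was -0.14 under TMM.

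The glucagon and cAMP genes lay highest of the groups by median. Their median log2 ratio was 0.76 over 5 genes. On the deposited scale 3 of the 5 were called higher, beside 22.9% of all genes. Under TMM 1 of the 5 was called higher, beside 14.9% of all genes. Gcgr, the glucagon receptor, was at 183 TPM in normal and 244 TPM in diabetic liver, from 1877 and 3300 reads. It was 1.34-fold higher, a log2 ratio of 0.42 (0.34 to 0.50), and stayed under the 1.5-fold threshold despite an exact test FDR of 2.6e-23. Under TMM its log2 ratio was 0.17. Downstream of the receptor, both catalytic subunits of PKA were higher. Prkaca was at 25.1 TPM in normal and 44.1 TPM in diabetic liver, upregulated to 1.76-fold from 258 and 595 reads, with an exact test FDR of 6.1e-14. Prkacb was at 8.27 and 22.4 TPM, upregulated to 2.71-fold from 85 and 303 reads, with an exact test FDR of 1.6e-17. The log2 ratios were 0.81 (0.60 to 1.03) for Prkaca and 1.44 (1.09 to 1.80) for Prkacb, and these became 0.56 and 1.19 under TMM. Prkar1a, a regulatory subunit that keeps the catalytic subunits inactive until cAMP binds, was at 17.7 TPM in normal and 29.9 TPM in diabetic liver. It was upregulated to 1.69-fold, a log2 ratio of 0.76 (0.50 to 1.02), with an exact test FDR of 9.8e-09, and it was at 0.50 under TMM. Thus the regulatory subunit was higher along with the catalytic ones on both scales, with Prkaca and Prkar1a under 1.5-fold on the TMM scale. Crtc2, the CREB coactivator that PKA signalling lets into the nucleus, was at 11.1 and 8.74 TPM, a log2 ratio of -0.34 (-0.73 to 0.04).

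All 4 AMPK genes with a row had a log2 ratio below 0 on the deposited scale, as did 3258 of all 8551 genes. The 4 other scalings lower every log2 ratio, so they could not change these signs. On the deposited scale 0 of the 4 were called, beside 22.9% of all genes called higher and 8.19% called lower. Prkaa1, a catalytic subunit, was at 1.46 TPM in normal and 0.74 TPM in diabetic liver, from 15 and 10 reads, and its log2 ratio of -0.98 had an interval from -2.30 to 0.27. Prkaa1 had a row only through the normal library. Prkab1, the scaffold subunit beta 1, was at 8.27 and 6.44 TPM, a log2 ratio of -0.36 (-0.81 to 0.09). Both intervals held a ratio of 1. Prkag1, the gamma subunit that binds adenine nucleotides, was at 36.4 TPM in normal and 29.0 TPM in diabetic liver. With 374 and 391 reads, its log2 ratio of -0.33 had an interval from -0.54 to -0.12. Stk11 encodes LKB1, the kinase that activates AMPK. Its level was 29.6 TPM in normal and 20.6 TPM in diabetic liver, a log2 ratio of -0.52 (-0.76 to -0.28) with an exact test FDR of 4.2e-05. This was 1.44-fold lower and short of the fold threshold, and under TMM, at -0.78, Stk11 was called lower. The summed level of the 4 genes was 75.7 TPM in normal and 56.7 TPM in diabetic liver.

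The mTOR genes held both the largest positive and the most negative log2 ratio of the list. Ddit4, also called REDD1, is a stress-induced and glucocorticoid-induced protein that acts through the TSC complex to hold mTOR complex 1 down. Its level was 0.88 TPM (9 reads) in normal liver against 4.74 TPM (64 reads) in diabetic liver. It was upregulated to 5.39-fold, a log2 ratio of 2.43 (1.42 to 3.63), with an exact test FDR of 7.8e-08, and it lay at the 97.6th percentile of all genes. With a normal level under 1 TPM, Ddit4 had a row only through the diabetic library, so its fold, FDR and rank depend on that selection. Tsc1, which stabilizes the TSC complex, was at 10.9 TPM in normal and 6.14 TPM in diabetic liver, from 112 and 83 reads. It was 1.78-fold lower, a log2 ratio of -0.83 (-1.25 to -0.40), with an exact test FDR of 0.000251. Ddit4 and Tsc1, which act on the same brake, thus lay on opposite sides of the median gene. Rictor, the defining subunit of mTOR complex 2, was at 4.18 and 2.00 TPM, from 43 and 27 reads. Its log2 ratio was -1.06 (-1.82 to -0.34), it was 2.09-fold lower, and its exact test FDR of 0.00556 missed the threshold until TMM, at -1.32, brought it to 0.000561. Mtor itself, the kinase of both complexes, was at 12.4 TPM in normal and 14.7 TPM in diabetic liver, a log2 ratio of 0.24 (-0.09 to 0.57) that was -0.02 under TMM. Rps6kb1, the S6 kinase that mTOR complex 1 activates, was at 2.63 and 4.15 TPM, a log2 ratio of 0.66 (-0.03 to 1.38) from 27 and 56 reads.

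**Figure D3:**
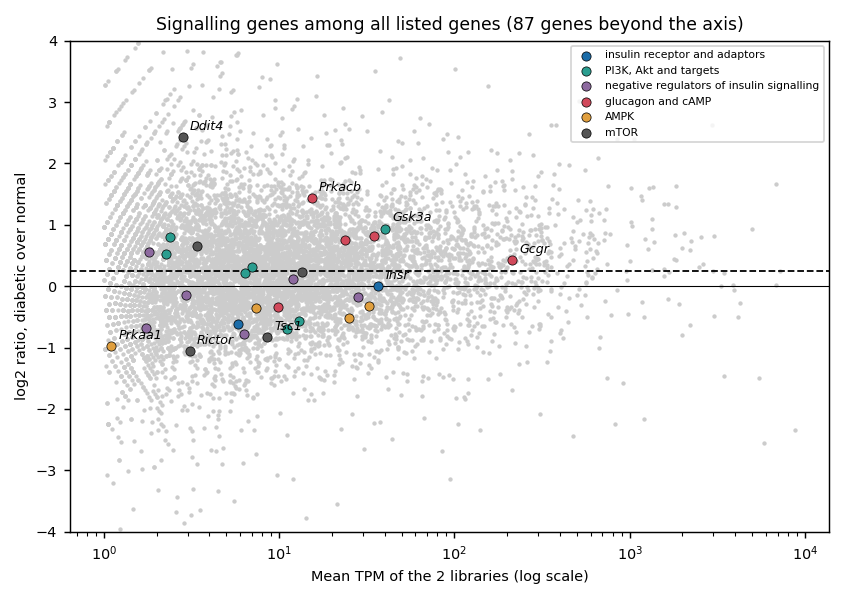
Log2 ratio of diabetic over normal against the mean level of both libraries (TPM, log axis) for all listed genes in grey and the 29 signalling genes in colour, with the dashed line at the median of all genes; 87 genes lie beyond the vertical axis. Ddit4 sits high among genes of low level, and Gcgr, with a mean of 213.5 TPM, lies close to the dashed line.

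Ratios between genes of 1 library do not depend on how the libraries are scaled to each other, so 13 pairs of paralogs or partners were compared in this way, and 7 pairs had both rows. The interval excluded an equal ratio for 5 of the 7, with no adjustment for the number of pairs and no count over pairs of other genes. Pik3r1 recurs among these pairs, which use the same reads as the gene values above and are not separate results. Gsk3a had 1.78 reads for each read of Gsk3b in normal and 5.04 in diabetic liver, a 2.83-fold change (95% interval 2.16 to 3.73). Prkaca had 3.04 reads for each read of Prkacb in normal and 1.96 in diabetic liver, a ratio of these ratios of 0.647 (0.482 to 0.864). The balance of the PKA catalytic genes thus differed between the libraries in favour of Prkacb. Reads of Insr per read of Gcgr, the receptors of the opposed hormones, were 0.2003 in normal and 0.150 in diabetic liver, a ratio of 0.750 (0.647 to 0.871). Pik3r1 had 7.42 reads for each read of Pik3ca in normal and 3.17 in diabetic liver, a ratio of 0.428 (0.219 to 0.813). Against Pik3cb, Pik3r1 went from 2.20 to 1.09, a ratio of 0.494 (0.325 to 0.747). The ratio changed by 1.15 (0.587 to 2.32) for Pik3ca over Pik3cb and by 1.02 (0.605 to 1.73) for Grb10 over Grb14, and both intervals held 1. The tags of a pair differ in place, as for Gsk3a and Gsk3b above, so the ratio itself is not a ratio of transcripts, and only its change between libraries is read here.

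**Figure D4:**
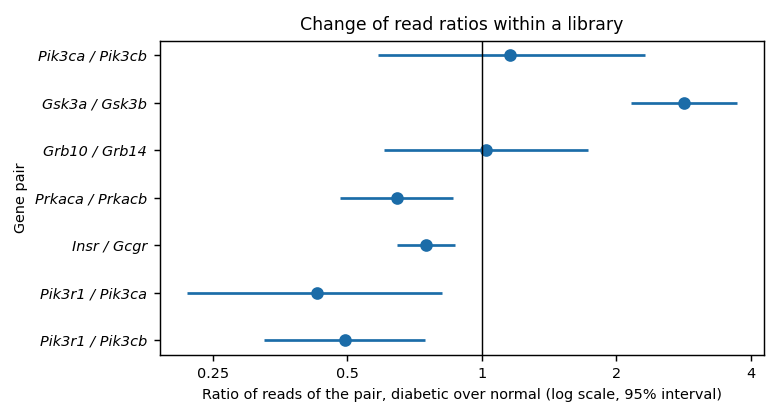
Change of the read ratio of 7 gene pairs, diabetic over normal, on a log axis, with exact 95% intervals that cover counting error only. The line at 1 means an equal ratio in both libraries. The pair Gsk3a and Gsk3b lies to the right at 2.83, 4 pairs lie to the left, and the intervals of Pik3ca over Pik3cb and Grb10 over Grb14 cross the line.

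Other genes of the same pathways were taken from lists by name. Of 44 further insulin signalling genes, 29 had a row, with 4 called higher, 0 called lower and a median log2 ratio of 0.04. Under TMM the counts turned to 3 called higher and 4 called lower, with a median of -0.21. For each of these lists, the shares of all genes are the 22.9% called higher and 8.19% called lower given above, and 14.9% and 13.4% under TMM. The 4 called higher on the deposited scale were genes of the MAP kinase branch and a phosphatase. Map2k1 and Map2k2, the MEK kinases, were at 11.6 and 7.30 TPM in normal and 23.9 and 13.8 TPM in diabetic liver, log2 ratios of 1.05 and 0.92. Mapk3, the ERK1 kinase that MEK activates, was at 19.5 and 37.2 TPM, a log2 ratio of 0.94. Inpp5k, a 5-phosphatase of PIP3, was at 2.72 and 7.18 TPM, a log2 ratio of 1.40. Of these 4 genes, Map2k1, Mapk3 and Inpp5k were also called under TMM, and Map2k2 was not. Among those called lower under TMM alone, and named after their values were seen, were Phlpp1, Ptprf and Socs2, with TMM log2 ratios of -0.95, -0.76 and -2.11.

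Of 35 further genes of the cAMP pathway, 23 had a row, with 4 called higher, 3 called lower and a median log2 ratio of 0.11. Under TMM the balance turned to 2 called higher and 5 called lower, with a median of -0.14. Prkar2a, another regulatory subunit of PKA, was at 2.72 TPM in normal and 7.70 TPM in diabetic liver, a log2 ratio of 1.5. Adcy6, an adenylyl cyclase that makes cAMP, was at 7.78 and 15.6 TPM, a log2 ratio of 1.01, and Pde4b, a phosphodiesterase that removes it, was at 1.85 and 4.74 TPM, a log2 ratio of 1.36. Synthesis and breakdown of cAMP were thus both represented among the genes called higher. Creb3l3, a liver transcription factor released from the endoplasmic reticulum, was at 39.6 and 67.3 TPM, a log2 ratio of 0.76. Akap11, a protein that anchors PKA, fell from 7.98 to 3.70 TPM, a log2 ratio of -1.11, and Crtc3, a relative of Crtc2, from 17.1 to 8.66 TPM, a log2 ratio of -0.98. Pde4b and Creb3l3 were not called under TMM, while Ep300 and Ppp1ca, named after their values were seen, were called lower there alone, at -0.75 and -0.74.

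Of 19 further AMPK genes, 11 had a row, with 2 called higher and 1 lower and a median log2 ratio of 0.50. Under TMM the balance turned to 1 called higher and 3 called lower, with a median of 0.25, as Ulk1 and Flcn, named after their values were seen, were called lower at -0.59 and -0.73. Fnip1, which binds AMPK and folliculin, was at 7.10 TPM in normal and 15.0 TPM in diabetic liver, a log2 ratio of 1.07. Cab39l, a partner protein of LKB1, was at 19.9 and 30.8 TPM, a log2 ratio of 0.63 that lost its call under TMM. Ulk2, a kinase that starts autophagy, was at 15.7 and 9.25 TPM, a log2 ratio of -0.76. The further AMPK genes thus lay on both sides of a ratio of 1, unlike the 4 AMPK genes of the list.

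Of 30 further mTOR genes, 21 had a row, with 3 called higher, 2 called lower and a median log2 ratio of 0.10. Under TMM the balance turned to 1 called higher and 4 called lower, with a median of -0.15. The Ragulator genes, which tether mTOR complex 1 to the lysosome, were split. Lamtor3 was at 5.06 TPM in normal and 15.99 TPM in diabetic liver, a log2 ratio of 1.66. Lamtor2 was at 41.5 and 72.6 TPM, a log2 ratio of 0.80. Lamtor1, which anchors the complex in the membrane, fell from 37.9 to 22.7 TPM, a log2 ratio of -0.74. Nprl3, part of the GATOR1 complex that inhibits mTOR complex 1 when amino acids are scarce, fell from 12.2 to 7.18 TPM, a log2 ratio of -0.76. Eif4b, a translation factor that the S6 kinase phosphorylates, was at 20.9 and 33.8 TPM, a log2 ratio of 0.69. Lamtor2 and Eif4b were not called under TMM, while Akt1s1 and Sgk2, named after their values were seen, were called lower there alone, at -0.96 and -0.82.

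Transcripts that answer to these hormones did not move in 1 direction. Igfbp1, a binding protein of insulin-like growth factors that insulin represses and FoxO1 activates, fell from 127 TPM in normal to 45.8 TPM in diabetic liver, a log2 ratio of -1.47. Pck1, the gluconeogenic enzyme that glucagon and glucocorticoids induce and insulin represses, rose from 668 to 2047 TPM, a log2 ratio of 1.62. G6pc, the catalytic subunit of glucose-6-phosphatase, was at 46.7 and 45.4 TPM, a log2 ratio of -0.04 (-0.22 to 0.13). Srebf1, the insulin-induced activator of lipid synthesis genes, was at 19.9 and 29.0 TPM, a log2 ratio of 0.54. Per1, a clock gene that also responds to cAMP and glucocorticoids, rose from 2.92 to 7.48 TPM, a log2 ratio of 1.36. Of 11 genes on this list 9 had a row, 2 were called higher and 1 lower, and Ppargc1a was not analysed here.

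Promoter windows of RefSeq genes, from 250 bases before to 50 bases after a start site in GRCm38.p6, were searched on both strands for the forkhead core GTAAACA, the full cAMP response element TGACGTCA and the E-box CACGTG. None of these letters was found in the windows of Ddit4, Prkacb, Gsk3a, Tsc1 and Pik3r1, the genes called under both scalings. The listed genes had 38 windows, which covered 26 of the 29 genes. Their median GC content was 63.2%, against 52.7% over all windows. The forkhead core was found in 1 of the 38 windows, that of Stk11, and in 3.65% of all 32851 windows. The cAMP response element was found in 2 of the 38 windows and in 1.79% of all windows. Both windows are of Prkar1a and overlap, and they hold the same 1 site. The E-box was found in 3 of the 38 windows, of Irs1, Prkaca and Prkar1a, and in 7.15% of all windows. The windows below are those of the genes with the largest log2 ratio in each direction among those called under both scalings, followed by the windows of Prkar1a with the E-box and with the cAMP response element, which were chosen after their matches were seen. Capitals mark a match, which lies 62 bases before the start site for the E-box and 49 bases before it for the cAMP response element.
Ddit4: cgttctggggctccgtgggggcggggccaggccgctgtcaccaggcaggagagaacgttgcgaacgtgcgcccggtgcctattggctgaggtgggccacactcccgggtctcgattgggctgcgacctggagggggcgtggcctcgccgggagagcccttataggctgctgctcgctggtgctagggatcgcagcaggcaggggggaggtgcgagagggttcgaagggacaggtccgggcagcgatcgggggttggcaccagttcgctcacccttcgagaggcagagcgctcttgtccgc (chr10:59951721-59952020, minus strand)
Tsc1: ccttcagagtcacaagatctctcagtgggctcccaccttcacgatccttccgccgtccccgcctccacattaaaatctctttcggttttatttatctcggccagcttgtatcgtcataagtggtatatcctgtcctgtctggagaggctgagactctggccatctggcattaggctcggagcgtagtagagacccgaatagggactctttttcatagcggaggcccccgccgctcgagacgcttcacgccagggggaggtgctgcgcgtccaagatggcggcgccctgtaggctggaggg (chr2:28640983-28641282, plus strand)
Prkar1a: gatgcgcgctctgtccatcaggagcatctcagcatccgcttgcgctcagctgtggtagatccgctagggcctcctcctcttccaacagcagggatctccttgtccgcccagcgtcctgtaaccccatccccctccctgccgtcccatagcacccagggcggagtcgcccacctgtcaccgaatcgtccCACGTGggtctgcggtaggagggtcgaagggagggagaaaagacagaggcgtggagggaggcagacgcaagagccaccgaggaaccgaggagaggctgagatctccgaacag (chr11:109650292-109650591, plus strand)
Prkar1a: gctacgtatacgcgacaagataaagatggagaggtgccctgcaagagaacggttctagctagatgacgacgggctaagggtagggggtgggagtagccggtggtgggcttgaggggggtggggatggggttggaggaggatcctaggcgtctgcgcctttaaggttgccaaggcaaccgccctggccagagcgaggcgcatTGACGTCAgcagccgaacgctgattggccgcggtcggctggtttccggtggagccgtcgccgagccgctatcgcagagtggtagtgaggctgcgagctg (chr11:109650699-109650998, plus strand)
A match is a run of letters and not evidence of binding, and no binding was measured in these libraries.

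Bulk liver holds several cell types, and fewer cells of a type cannot be told apart from less RNA per cell. The hepatocyte markers all had a row, with Alb at 6801 TPM in normal and 6912 TPM in diabetic liver. The summed level of 6 hepatocyte markers was 23716 and 11922 TPM, and Apoa1 alone was at 14668 and 2875 TPM. These markers were mixed, with Cps1 called higher (130 and 317 TPM) and Apoa1 and Hnf4a (96.8 and 46.2 TPM) called lower, under TMM as well. The Kupffer cell markers, 8 rows, summed to 327 TPM in normal and 194 TPM in diabetic liver, with 4 called lower and 1 called higher, beside the 8.19% and 22.9% of all genes. Of that sum, C1qa alone was at 176 and 50.7 TPM, and C1qb, the marker called higher, was at 38.1 and 57.8 TPM and was not called under TMM. Sums were 149 and 132 TPM for 8 sinusoidal endothelium markers, 115 and 156 TPM for 6 stellate cell markers, 61.5 and 107 TPM for 3 cholangiocyte markers, 5.35 and 3.77 TPM for 2 B cell markers, and 51.9 and 44.2 TPM for 1 erythroid marker. Spp1 alone was at 57.2 and 103 TPM of the cholangiocyte sums, and Krt7 (1.07 and 1.18 TPM) and Epcam (3.21 and 3.04 TPM) were not called. The stellate cell markers were mixed, with Col1a1 called higher (3.11 and 9.40 TPM) and Reln called lower (12.8 and 7.11 TPM), as were the endothelial ones, with Kdr called higher (11.97 and 22.1 TPM) and Clec4g called lower (47.7 and 30.7 TPM). The markers listed for T and NK cells, adipocytes and exocrine pancreas had no row. The part of these cell types in the differences of the signalling genes was not tested.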

How the data were processed

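The authors isolated polyadenylated RNA, made cDNA, digested it with DpnII and sequenced tags of 1 normal and 1 diabetic liver library; how many mice entered each library is not given in the sources used here. They compared clean tags with RefSeq and deposited RPM values per gene, which they call TPM, with 0.01 where a gene had no tag and without genes of a mean under 1 TPM. The submitters' processing notes name the build mm9; the aligner and its settings are not given in the sources used here, nor how tags shared by paralogs were counted. No column of values was left unused (0).

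Whole reads were computed from the equal steps of the RPM values, within 0.006 TPM, for 8513 of 8513 values above 0.01 in the normal and 8536 of 8537 in the diabetic library. The table is not raw counts, so fold changes use the deposited values, and the reads enter only the two-sided exact binomial test (scipy 1.17.1, Benjamini-Hochberg over 8551 genes), the Clopper-Pearson intervals of ratios and the exact conditional intervals of pairs. The scripts were tested on simulated data. Alternatives were TMM (trims of 30% and 5%), median-ratio, upper-quartile and listed-sum scaling, pseudocounts of 0.1 and 1 TPM, a mean of at least 5 TPM, a 2-fold threshold, and an assumed variation of 20% or 40% between libraries of the same group, for which a conditional negative binomial test was written in Python. In the listed reads, the normal library held 37.1% of its clean tags and the diabetic library 44.4%. Of the Entrez numbers, 8317 of 8551 were found in the RefSeq gene table of GRCm38.p6; mm9 coordinates were not used, and all coordinates printed are GRCm38.

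The signalling genes and all gene lists were chosen with earlier results of these data known. All listed genes are named; of each further list, the genes named are those called on the deposited scale, up to the 6 with the largest absolute log2 ratio, and Igfbp1, Pck1, G6pc, Ppargc1a and Srebf1; single values of 2 further genes are not reported here. The 40 genes were matched by symbol only, while in the further lists, the markers and for Lepr older symbols were matched by Entrez number.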

Additional observations from a re-analysis of the deposited data

How the results depend on the processing

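The 29 signalling genes gave 7 at least 1.5-fold higher, 7 at least 1.5-fold lower, 5 called higher, 2 called lower and a median log2 ratio of 0.006. In the same order these were 3, 11, 3, 6 and -0.247 under TMM, 3, 12, 3, 8 and -0.300 under median-ratio scaling, 3, 12, 3, 7 and -0.263 under upper-quartile scaling, and 3, 12, 3, 7 and -0.254 with the sum of the listed genes made equal. The shift of 0.25 to 0.31 in every log2 ratio is built into these scalings, and which scaling is right was not tested. From the deposited scale to TMM, the share of all genes at least 1.5-fold lower rose from 15.3% to 23.6%. The share at least 1.5-fold higher fell from 34.4% to 24.0%. Shares called lower were 8.19% and 13.4%, and shares called higher 22.9% and 14.9%. No share of all genes was counted for the other scalings, the pseudocounts, the 5 TPM mean or the 2-fold threshold. A pseudocount of 1 TPM left 5 genes at least 1.5-fold higher and 4 lower, with 5 and 2 called as before. With a mean of at least 5 TPM, 20 of the 29 genes remained, 4 at least 1.5-fold higher and 4 lower. At a 2-fold threshold the counts were 2 higher and 1 lower, with 2 called higher and 0 called lower. With an assumed variation of 20% or 40% between libraries of the same group, 0 genes were called higher and 0 lower. The lowest FDR in that conditional negative binomial test, that of Ddit4, was 0.00187 and 0.424. In the exact test without assumed variation, 9 of the 29 genes and 3212 of all 8551 genes had an FDR under 0.001. A pseudocount of 0.1 TPM changed no count. No paired analysis was possible because each group was 1 library. Depth limited 7 genes with fewer than 50 reads in both libraries, and 15 of the 29 intervals held a ratio of 1.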
